A study of Homo sapiens with 12 samples.

Results

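The 7 genes described here are JAG1, TNFRSF12A, NEDD9, TCIM, CHST15, VPS37A and RNASET2. They were chosen by their higher counts in HepG2 cells grown in Plasmax-TE+Fe than in Plasmax-TE, and they are 7 of the 10459 genes tested. HepG2 is an established human line from a liver cancer, labelled here as wild type. The cells were kept in 1 of 4 media, with 3 libraries each. These were Plasmax-TE+Fe (Plasmax made without trace elements, with iron supplied), Plasmax-TE (made without trace elements), Plasmax (a medium whose composition follows human plasma) and EMEM (Eagle's minimum essential medium, in which the line was maintained). Every medium held 10% heat-inactivated fetal bovine serum, which was not described as stripped of metals. Cells were seeded in EMEM, switched after 24 h, given fresh medium 48 h later and harvested 96 h after the switch. QuantSeq libraries, which read messenger RNA near its 3′ end, were made from total RNA. No label tells whether the 3 libraries per medium are separate cultures, and p-values therefore reflect only library-to-library spread, possibly technical.

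The genes share no single pathway. JAG1 is a membrane-bound ligand of Notch receptors, which are cut after binding and release a fragment that switches on genes such as HES1, and in the liver this pathway is known for bile duct formation. TNFRSF12A (FN14) is the receptor of the cytokine TWEAK, signals through TRAF adaptors to NF-kB and is known to be induced in injured liver. NEDD9 is a scaffold of the CAS family that is phosphorylated at focal adhesions, and TCIM is a small protein that binds Chibby, an inhibitor of beta-catenin. CHST15 adds a further sulfate to chondroitin sulfate, VPS37A is a subunit of ESCRT-I, which sorts ubiquitinated receptors for breakdown, and RNASET2 is an acid ribonuclease of lysosomes that is also secreted. The last 3 are enzymes or sorting proteins rather than signalling molecules in the narrow sense, so the working name signalling genes holds for JAG1, TNFRSF12A, NEDD9 and TCIM.

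Total counts ran from 1562125 to 2384090 per library, and 1 count was worth 0.426 to 0.642 CPM (counts scaled to a common library size). All 10 hepatocyte markers looked for were measured, with summed levels of 19580 to 20420 CPM in Plasmax-TE+Fe, 25120 to 25900 in Plasmax-TE, 12790 to 16450 in Plasmax and 37940 to 41990 in EMEM. Of 10 leukocyte, endothelial and fibroblast markers, 0 were among the genes tested. The part of the moving hepatocyte markers in the results below was not tested. Plasmax-TE+Fe replicate 2 and Plasmax-TE replicate 1, which carry the consecutive library numbers 88 and 87, stood apart from the other 10 libraries. On the second principal component of log2 CPM, which held 17.6% of its variance, Plasmax-TE+Fe replicate 2 lay at 32.0 and Plasmax-TE replicate 1 at 35.5, and the others lay between -19.6 and 8.11. Since RNA came from all cells of a well, fewer cells expressing a gene and less of its RNA per cell cannot be told apart.

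The start regions of the genes are shown as a description only. That the 7 genes moved together in the contrast that chose them was set by the choice, and shared control was not tested. RefSeq windows of 300 bases (250 before and 50 after a start site, build GRCh38.p14) were matched for 4 of the 7 genes. No window is given here for TNFRSF12A, TCIM and VPS37A. The windows of JAG1 (chr20:10673950-10674249), the first of 3 listed for NEDD9 (chr6:11382299-11382598), CHST15 (chr10:124093549-124093848) and RNASET2 (chr6:166956501-166956800) are all on the minus strand and are printed 5′ to 3′. Capitals mark matches on either strand to the core of hypoxia-inducible factor sites (ACGTG or GCGTG) or, in CHST15 alone, also to the TEAD motif (GGAATG, there as its reverse complement).
JAG1: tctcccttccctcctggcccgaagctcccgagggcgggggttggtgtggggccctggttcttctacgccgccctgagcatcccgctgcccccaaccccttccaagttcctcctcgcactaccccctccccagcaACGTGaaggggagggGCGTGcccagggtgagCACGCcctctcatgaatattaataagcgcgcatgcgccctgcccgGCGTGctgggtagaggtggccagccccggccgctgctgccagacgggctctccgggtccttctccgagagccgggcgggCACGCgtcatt
NEDD9: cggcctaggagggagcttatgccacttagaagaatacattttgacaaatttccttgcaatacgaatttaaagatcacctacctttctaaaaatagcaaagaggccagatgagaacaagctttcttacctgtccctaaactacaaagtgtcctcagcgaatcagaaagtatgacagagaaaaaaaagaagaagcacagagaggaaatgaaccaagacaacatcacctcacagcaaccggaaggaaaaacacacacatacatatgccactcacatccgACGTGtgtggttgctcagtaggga
CHST15: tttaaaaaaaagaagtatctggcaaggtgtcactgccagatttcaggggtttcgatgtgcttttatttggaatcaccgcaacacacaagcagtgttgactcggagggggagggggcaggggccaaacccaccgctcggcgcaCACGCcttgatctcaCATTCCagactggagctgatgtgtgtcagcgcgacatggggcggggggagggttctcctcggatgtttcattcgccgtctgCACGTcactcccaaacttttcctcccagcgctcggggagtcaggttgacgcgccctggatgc
RNASET2: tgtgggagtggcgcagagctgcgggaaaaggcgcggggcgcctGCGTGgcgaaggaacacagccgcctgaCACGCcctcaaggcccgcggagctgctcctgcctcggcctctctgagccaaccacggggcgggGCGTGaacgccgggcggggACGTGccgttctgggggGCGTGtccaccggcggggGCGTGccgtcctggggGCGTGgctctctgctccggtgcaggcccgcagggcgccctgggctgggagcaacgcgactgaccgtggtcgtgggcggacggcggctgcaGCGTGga
The hypoxia core occurred 5 times in the JAG1 window, 1 time in the NEDD9 window, 2 times in that of CHST15 and 8 times in that of RNASET2. It is a short motif, found in 48.4% of 35116 windows of this length. Of the other NEDD9 windows, 1 overlaps the window shown and holds the same match, and the last held 0. The TEAD motif stood in 14% of all windows. None of the 6 windows held the AP-1 motif TGANTCA (7.71% of all windows), the RBPJ motif TGGGAA (24%) or the antioxidant response element TGACNNNGC (13.3%), and no marked matches overlapped. A match is only a run of letters, and the counts give no view of binding.

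In Plasmax-TE+Fe against Plasmax-TE, the contrast that chose them, all 7 genes were 1.83- to 3.41-fold higher, with a median log2 fold change of 1.13 beside 0.00 over all genes tested. Each had all 3 Plasmax-TE+Fe libraries above all 3 Plasmax-TE libraries, as did 6.14% of all genes in that direction. Because the same values picked the genes, these differences are a description and carry no test. The genes make up 7 of the 9 called higher (0.0861% of all genes, at a Benjamini-Hochberg adjusted p under 0.05 from edgeR). The other 2 were CYP1A1, an enzyme controlled by the aryl hydrocarbon receptor (13.6 CPM in Plasmax-TE+Fe, 2.13 in Plasmax-TE), and AREG, a ligand of the EGF receptor (242 CPM in Plasmax-TE+Fe and 58.9 in Plasmax-TE, with overlapping libraries). Just outside the threshold lay SERPINE2 (log2 fold change 0.87), TEX19 (1.70) and DNAJC12 (0.84). How many genes passed depended on the libraries in the fit. 0 genes were called with only these 6 libraries (776 at an unadjusted p under 0.05), and 0 without Plasmax-TE+Fe replicate 1 or 3 or Plasmax-TE replicate 2 or 3 (549 to 981 unadjusted). Without Plasmax-TE+Fe replicate 2 there were 229, and with a block for the library-number runs there were 152.

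**Figure D1:**
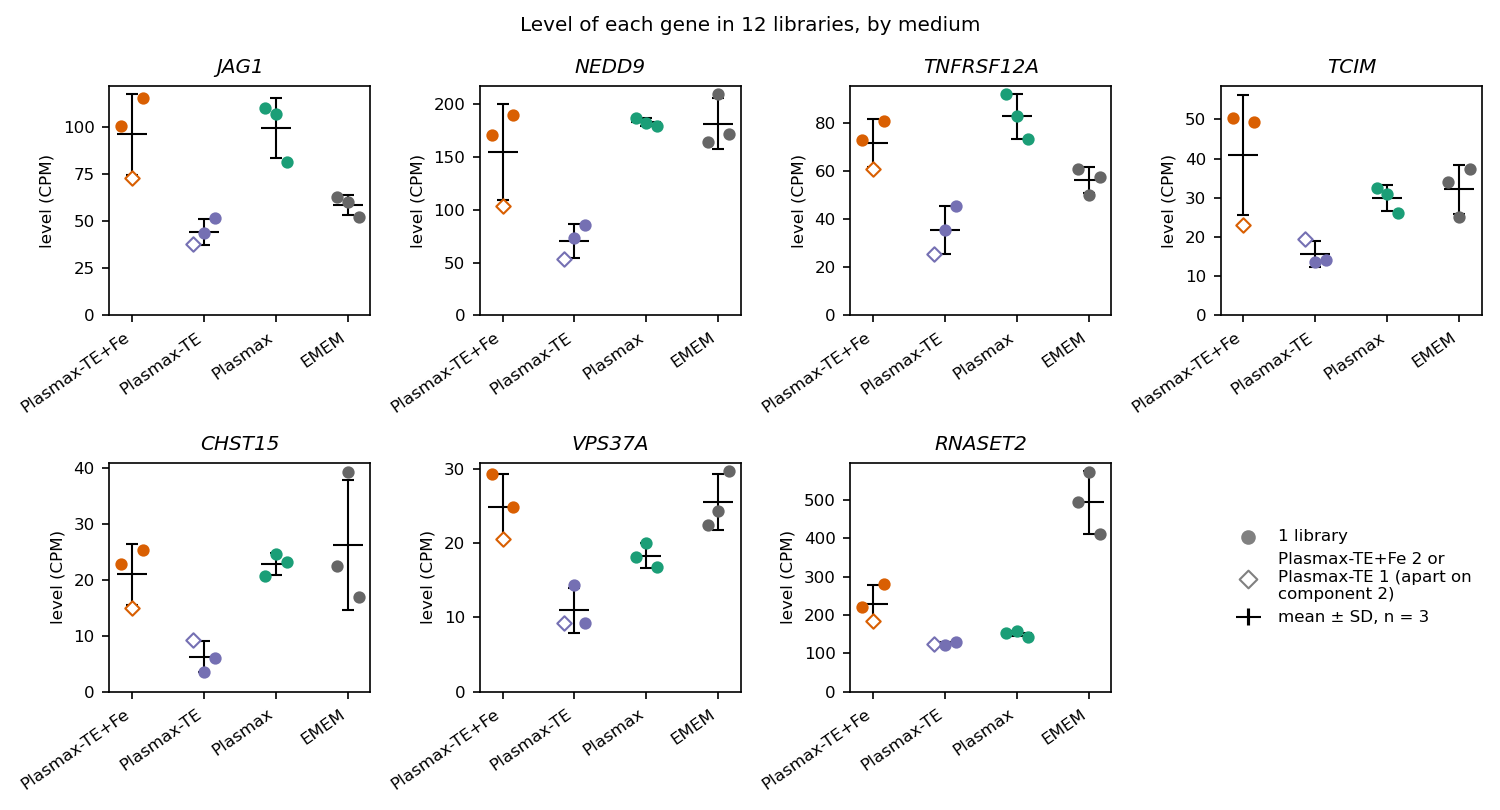
Level of each gene in CPM (linear axis from 0) in each of the 12 libraries, by medium. Points are single libraries, open diamonds are Plasmax-TE+Fe replicate 2 and Plasmax-TE replicate 1, and bars give the mean ± SD (n = 3). Plasmax-TE is the lowest medium in all 7 panels, and RNASET2 in EMEM (493 CPM) stands far above its other media.

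JAG1 had 101, 73.0 and 116 CPM in the Plasmax-TE+Fe libraries, 37.9, 43.6 and 51.7 in Plasmax-TE, 110, 107 and 81.5 in Plasmax and 62.9, 60.5 and 52.4 in EMEM. The levels of Plasmax-TE+Fe and Plasmax overlapped, both lay above EMEM, and EMEM lay above Plasmax-TE by a gap of 0.78 CPM. The description of Plasmax-TE+Fe against Plasmax-TE was a log2 fold change of 1.12 ± 0.19 (SE). Plasmax-TE against Plasmax gave -1.16 ± 0.19, and Plasmax-TE+Fe against Plasmax gave -0.04 ± 0.18, again without a test, since they share libraries with the choice of genes.

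TNFRSF12A followed a like order. Its levels were 73.1, 61.2 and 81.2 CPM in Plasmax-TE+Fe, 25.5, 35.5 and 45.7 in Plasmax-TE, 92.2, 83.1 and 73.6 in Plasmax and 61.0, 50.3 and 57.6 in EMEM. Plasmax-TE+Fe and Plasmax overlapped, and Plasmax-TE+Fe cleared EMEM by only 0.2 CPM. The log2 fold change was 1.01 ± 0.19 for Plasmax-TE+Fe against Plasmax-TE and -1.22 ± 0.19 for Plasmax-TE against Plasmax.

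NEDD9 had 171, 104 and 190 CPM in Plasmax-TE+Fe, 53.1, 73.3 and 85.4 in Plasmax-TE, 188, 182 and 180 in Plasmax and 164, 210 and 171 in EMEM. The 3 media other than Plasmax-TE could not be ordered, since their libraries overlapped. The log2 fold change was 1.13 ± 0.21 for Plasmax-TE+Fe against Plasmax-TE and -1.37 ± 0.21 for Plasmax-TE against Plasmax.

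TCIM, the small beta-catenin regulator, had 50.3, 23.1 and 49.3 CPM in Plasmax-TE+Fe, 19.5, 13.5 and 14.1 in Plasmax-TE, 32.6, 31.0 and 26.1 in Plasmax and 34.0, 25.1 and 37.3 in EMEM. Its Plasmax-TE+Fe replicate 2 lay below every Plasmax library, while the other 2 lay above them. The log2 fold change of Plasmax-TE+Fe against Plasmax-TE was 1.39 ± 0.27, and 1.85 ± 0.25 without the 2 libraries that stood apart.

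CHST15 had 22.8, 14.9 and 25.4 CPM in Plasmax-TE+Fe, 9.21, 3.60 and 5.98 in Plasmax-TE, 20.7, 24.5 and 23.3 in Plasmax and 22.5, 39.2 and 17.0 in EMEM. The Plasmax-TE values rest on 17, 8 and 11 counts, so this sulfotransferase is the gene with the widest error. Its log2 fold change of Plasmax-TE+Fe against Plasmax-TE, 1.77 ± 0.36, was the largest of the 7 and moved to 2.34 ± 0.41 without the 2 libraries that stood apart.

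VPS37A had 29.2, 20.6 and 24.9 CPM in Plasmax-TE+Fe, 9.21, 14.4 and 9.24 in Plasmax-TE, 18.2, 20.0 and 16.8 in Plasmax and 22.5, 24.3 and 29.8 in EMEM. Plasmax-TE+Fe overlapped EMEM and cleared Plasmax by 0.53 CPM. Its log2 fold change was 1.17 ± 0.24 for Plasmax-TE+Fe against Plasmax-TE and 0.45 ± 0.23 for Plasmax-TE+Fe against Plasmax.

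RNASET2 had the same order of media means as VPS37A, with EMEM far above the other media. The ribonuclease stood at 222, 185 and 280 CPM in Plasmax-TE+Fe, 123, 121 and 130 in Plasmax-TE, 154, 158 and 144 in Plasmax and 495, 573 and 411 in EMEM. No 2 media overlapped, with EMEM highest, then Plasmax-TE+Fe, Plasmax and Plasmax-TE. Plasmax-TE+Fe against Plasmax-TE gave a log2 fold change of 0.87 ± 0.17, Plasmax-TE+Fe against Plasmax 0.59 ± 0.16 and Plasmax-TE against Plasmax -0.28 ± 0.17.

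Across the genes, all 7 were lower in Plasmax-TE than in Plasmax with no overlap of libraries (15.1% of all genes were), by log2 fold changes of -1.89 (CHST15) to -0.28 (RNASET2). All 7 were also lower without overlap in Plasmax-TE than in EMEM (13% of all genes). In Plasmax-TE+Fe against Plasmax, 2 of the 7, VPS37A and RNASET2, were higher without overlap (8.63% of all genes), and the 7 log2 fold changes ran from -0.24 (NEDD9) to 0.59. All 3 comparisons use Plasmax-TE or Plasmax-TE+Fe libraries that chose the genes, so low Plasmax-TE and high Plasmax-TE+Fe values are favoured by the choice. Plasmax-TE+Fe replicate 2 was the lowest of its medium in 7 of 7 genes (39.2% of all genes), and Plasmax-TE replicate 1 was the lowest of its medium in 4 of 7 (40.5% of all genes). Without both libraries the log2 fold changes of Plasmax-TE+Fe against Plasmax-TE were 1.18 for JAG1, 0.93 for TNFRSF12A, 1.19 for NEDD9, 1.18 for VPS37A and 0.99 for RNASET2.

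**Figure D2:**
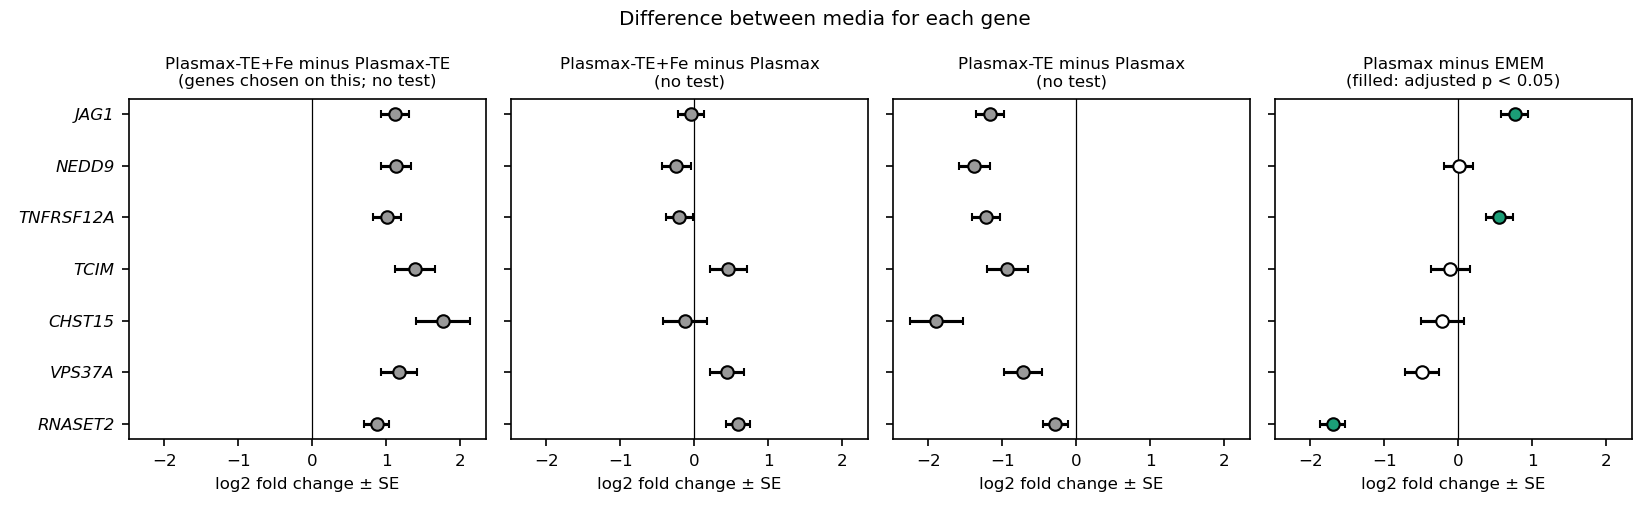
Log2 fold change ± SE of each gene in 4 comparisons of media. Grey points carry no test, and in the right panel filled points have an adjusted p under 0.05. The 7 genes lie together right of 0 in the first panel and spread from -1.70 (RNASET2) to 0.76 (JAG1) in Plasmax against EMEM.

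Plasmax against EMEM compares libraries whose levels do not enter the difference that chose the genes, although all 12 libraries shared the model's estimate of spread. The Notch ligand JAG1 and the TWEAK receptor TNFRSF12A were higher in Plasmax, and the ribonuclease RNASET2 was lower. That is 2 of 7 called higher (9.9% of all genes were) and 1 of 7 called lower (11.5%). JAG1 averaged 99.7 ± 15.8 CPM in Plasmax and 58.6 ± 5.48 in EMEM (SD, n = 3 each), a log2 fold change of 0.76 ± 0.19 (edgeR adjusted p = 0.00596). TNFRSF12A averaged 83.0 ± 9.32 CPM in Plasmax and 56.3 ± 5.48 in EMEM, 0.56 ± 0.19 (edgeR adjusted p = 0.0376). This call was lost without Plasmax replicate 1 or 2 or any of the 3 EMEM libraries (edgeR adjusted p = 0.062 to 0.137). RNASET2 averaged 152 ± 7.43 CPM in Plasmax and 493 ± 81.4 in EMEM, -1.70 ± 0.16 (edgeR adjusted p = 6.17e-07). Fitted on the 6 Plasmax and EMEM libraries alone, JAG1 (edgeR adjusted p = 0.002), TNFRSF12A (0.0136) and RNASET2 (3.11e-07) were called again, and the other 4 genes were not.

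The other 4 genes did not pass in Plasmax against EMEM. NEDD9 differed by 0.01 on the log2 scale, with a 95% interval of -0.40 to 0.42, TCIM by -0.10 (-0.64 to 0.44) and CHST15 by -0.21 (-0.82 to 0.40). VPS37A averaged 18.3 ± 1.64 CPM in Plasmax and 25.5 ± 3.8 in EMEM, and its libraries did not overlap, but its log2 fold change of -0.48 ± 0.23 had an edgeR adjusted p of 0.144. Within the 3 runs of consecutive library numbers, 1 library of each medium per run, JAG1 differed by 0.80, 0.82 and 0.63, TNFRSF12A by 0.59, 0.72 and 0.35, and RNASET2 by -1.68, -1.85 and -1.51 on the log2 scale.

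The average of Plasmax-TE+Fe and Plasmax-TE shows where the genes lay without the other trace elements, iron present or not. Its 6 libraries are those that chose the genes, so these values are a description with no test. NEDD9 averaged 113 CPM over the 6 libraries and 183 in Plasmax, a log2 fold change of -0.81 ± 0.17. TNFRSF12A differed from Plasmax by -0.71 ± 0.16, JAG1 by -0.60 ± 0.16 and CHST15 by -1.0 ± 0.28, while TCIM (-0.23 ± 0.23), VPS37A (-0.14 ± 0.21) and RNASET2 (0.15 ± 0.14) lay nearer to it. In NEDD9, TNFRSF12A, JAG1 and CHST15 the Plasmax-TE+Fe libraries alone overlapped those of Plasmax, and the Plasmax-TE libraries did not. Against EMEM the average of RNASET2 was 177 CPM beside 493 in EMEM, -1.54 ± 0.13, and CHST15 differed by -1.22 ± 0.27, or -0.78 without EMEM replicate 2, its highest library. NEDD9 differed from EMEM by -0.80 ± 0.17 and VPS37A by -0.62 ± 0.20, and JAG1 (0.16 ± 0.17), TNFRSF12A (-0.15 ± 0.17) and TCIM (-0.33 ± 0.23) differed by less.

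**Figure D3:**
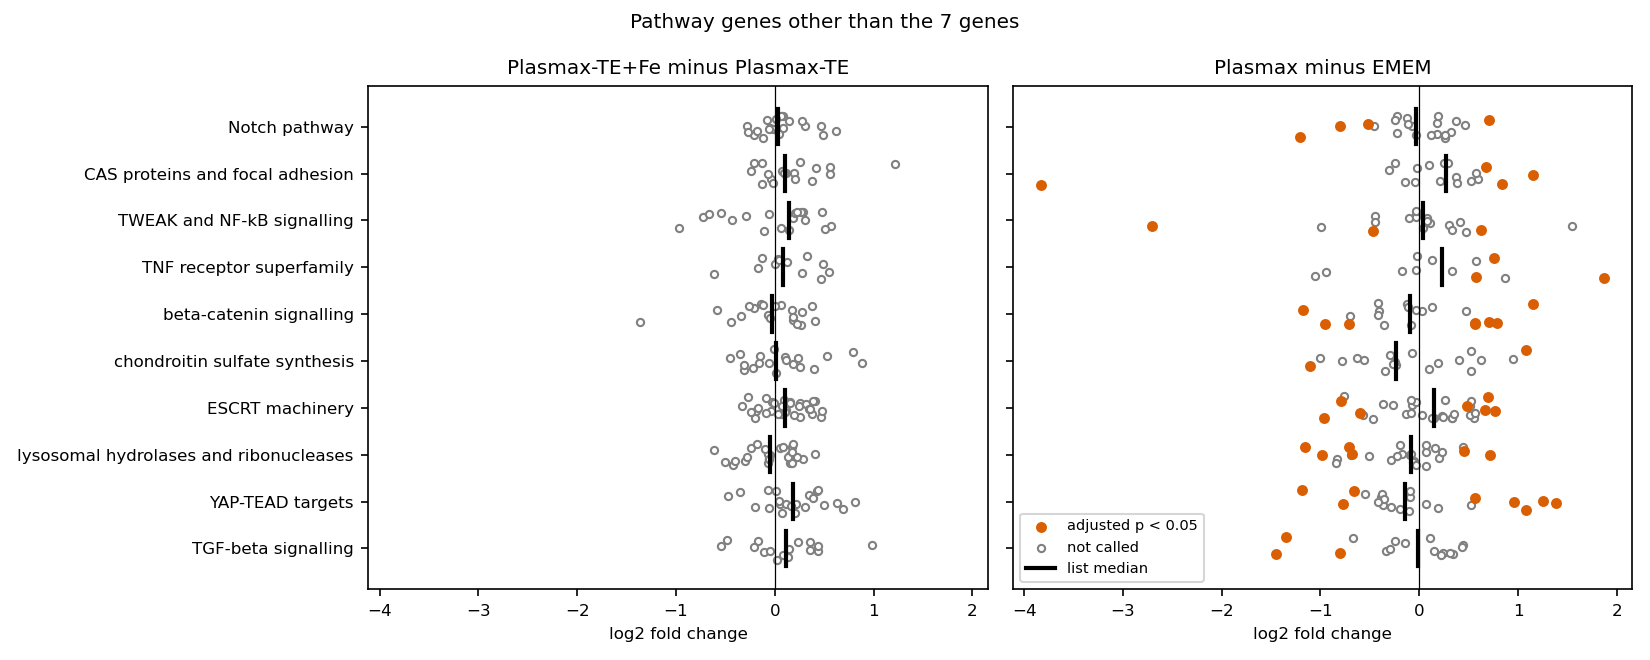
Log2 fold changes of the 204 measured pathway genes, by list, in Plasmax-TE+Fe against Plasmax-TE (left) and Plasmax against EMEM (right). Filled points have an adjusted p under 0.05, and black bars are list medians. No point is filled on the left, and 48 are filled on the right.

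Genes that work with the 7 were looked at in 10 lists, with 204 of 263 listed genes measured. In Plasmax-TE+Fe against Plasmax-TE, 0 of the 204 were called by edgeR and 0 by limma-voom, while DESeq2, and edgeR with the library-number block, each called 1 higher and 1, NFKBIA, lower. At an unadjusted p under 0.05 there were 22 in edgeR (10.8%, beside 9.31% of all genes). Their median log2 fold change was 0.08, beside 0.00 over all genes. The Notch target HES1 had 285, 179 and 292 CPM in Plasmax-TE+Fe and 128, 179 and 183 in Plasmax-TE (0.62 ± 0.20, edgeR adjusted p = 0.241), and these libraries overlapped. NFKBIA, the inhibitor of NF-kB that NF-kB itself induces, had 235, 228 and 230 CPM in Plasmax-TE+Fe and 331, 362 and 406 in Plasmax-TE (-0.67 ± 0.14, edgeR adjusted p = 0.0575). The ESCRT-I core subunit TSG101, the partner of VPS37A, averaged 47.1 ± 3.56 CPM in Plasmax-TE+Fe and 49.99 ± 8.48 in Plasmax-TE (-0.09 ± 0.17, edgeR adjusted p = 0.932). The paralogs VPS37B (0.39 ± 0.30), VPS37C (0.15 ± 0.19) and VPS37D (-0.34 ± 0.51), chosen after their values were seen, did not pass either. TFRC and HAMP, listed as readouts of iron, were also not called in this contrast, and whether they follow iron in these cells was not tested. TFRC, the transferrin receptor, averaged 59.6 ± 22.4 CPM in Plasmax-TE+Fe and 72.2 ± 18.6 in Plasmax-TE (edgeR adjusted p = 0.788). HAMP, which encodes hepcidin, averaged 76.4 ± 10.5 CPM in Plasmax-TE+Fe and 80.6 ± 29.1 in Plasmax-TE (edgeR adjusted p = 0.957). Both were called lower in Plasmax than in EMEM. HAMP averaged 7.05 CPM in Plasmax and 45.8 in EMEM (edgeR adjusted p = 5.39e-06), and TFRC 83.85 and 154 (edgeR adjusted p = 0.0087). The average of Plasmax-TE+Fe and Plasmax-TE lay above Plasmax for HAMP (3.48 ± 0.29, edgeR adjusted p = 4.45e-07). For TFRC it was not called (-0.355 ± 0.20, edgeR adjusted p = 0.296).

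In Plasmax against EMEM, 25 of the 204 were higher (12.3%, beside 9.9% of all genes) and 23 lower (11.3%, beside 11.5%), so the lists as a whole lay near the share of all genes. The genes below are single calls, and the count of each list is to be read against those shares. The Notch list had 1 higher and 3 lower of 21, with HES1 higher (242 CPM in Plasmax, 149 in EMEM, 0.70 ± 0.20, edgeR adjusted p = 0.0157) and RFNG, a glycosyltransferase that modifies Notch, lower (80.7 CPM in Plasmax, 141 in EMEM, -0.80 ± 0.16, edgeR adjusted p = 0.00108). Of 12 TNF receptor genes, 3 were called, all higher, among them NGFR (1.87 ± 0.31, edgeR adjusted p = 0.000237) and TNFRSF21 (0.76 ± 0.15, edgeR adjusted p = 0.00133). In the TWEAK and NF-kB list, 1 of 19 was higher and 2 lower, with the chemokine CCL20 at 54.0 CPM in Plasmax and 344 in EMEM (-2.70 ± 0.39, edgeR adjusted p = 5.14e-05). The CAS and focal adhesion list had 3 higher and 1 lower of 18, with the integrin ITGB1 higher (1.15 ± 0.23, edgeR adjusted p = 0.00125) and the adhesion protein TNS1 lower (-3.83 ± 0.46, edgeR adjusted p = 6.28e-06).

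The lists of beta-catenin signalling (5 higher, 3 lower of 20) and YAP-TEAD targets (5 higher, 3 lower of 22) held called genes on both sides. The beta-catenin target GLUL, glutamine synthetase, was lower in Plasmax (-0.96 ± 0.14, edgeR adjusted p = 5.11e-05), and RNF43, which lowers Wnt receptors, was higher (1.15 ± 0.19, edgeR adjusted p = 0.000234). Of 16 TGF-beta genes, 3 were called, all lower in Plasmax, with TGFBI, a secreted matrix protein, at -1.46 ± 0.15 (edgeR adjusted p = 1.42e-06). Among 19 chondroitin sulfate genes, CSGALNACT2, which starts the chain, was higher (1.08 ± 0.30, edgeR adjusted p = 0.0126), and CHST13, another chondroitin sulfotransferase, was lower (-1.11 ± 0.19, edgeR adjusted p = 0.000317). Of 31 ESCRT genes 4 were higher and 3 lower, with the ubiquitin-binding HGS higher (0.77 ± 0.18, edgeR adjusted p = 0.00382) and TSG101 lower (-0.80 ± 0.17, edgeR adjusted p = 0.00254). Of 26 lysosomal and ribonuclease genes 2 were higher and 4 lower, with the membrane protein LAMP1 higher (0.72 ± 0.13, edgeR adjusted p = 0.000481) and the cholesterol-binding NPC2 lower (-0.71 ± 0.14, edgeR adjusted p = 0.00108). The average of Plasmax-TE+Fe and Plasmax-TE had 9 of the 204 higher than Plasmax (4.41%, beside 3.6% of all genes) and 16 lower (7.84%, beside 4.21%). It had 3 higher than EMEM (1.47%, beside 3.85% of all genes) and 16 lower (7.84%, beside 6.6%).

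**Figure D4:**
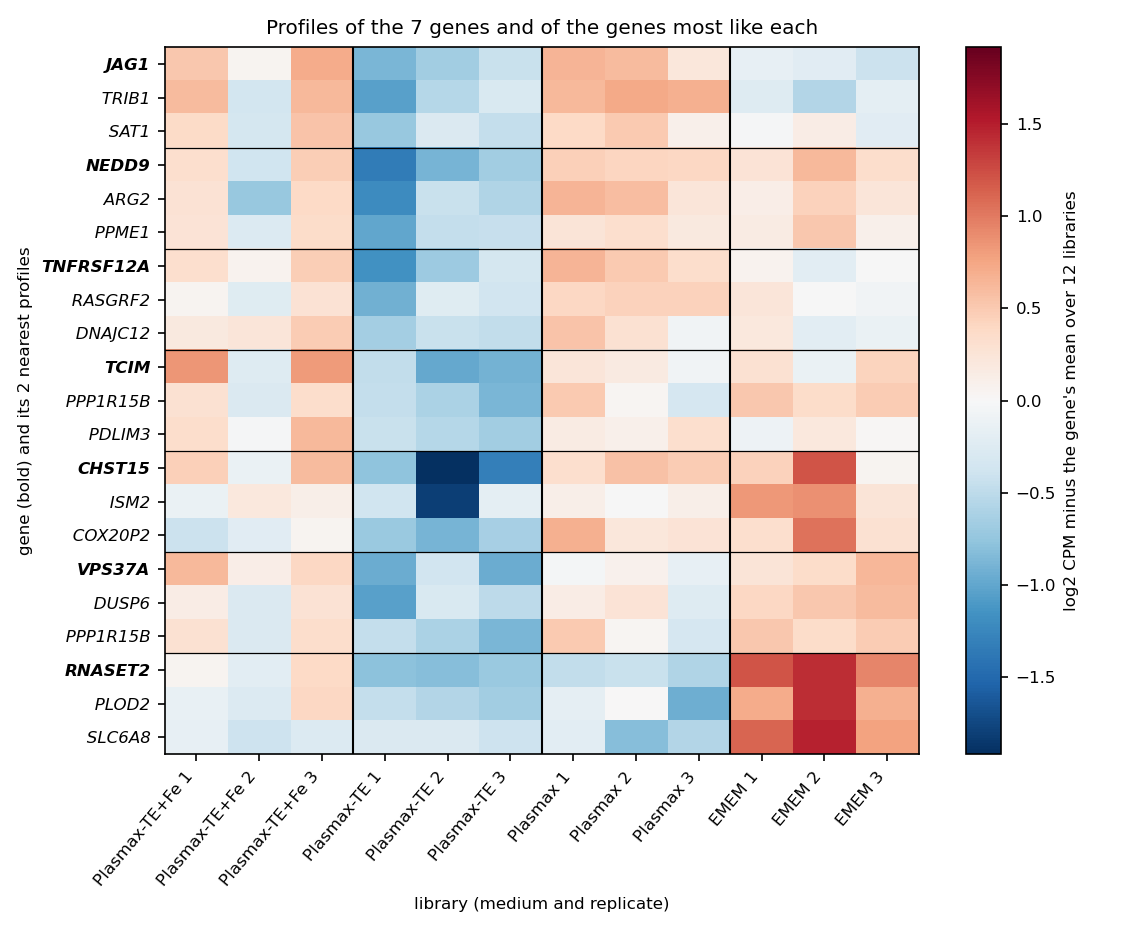
Log2 CPM of each gene minus its mean over the 12 libraries, with the 7 genes in bold and the 2 genes most like each beneath it. Colour runs from blue (below the gene's mean) to red (above it), and the columns are the libraries by medium. The Plasmax-TE columns are blue in all 7 genes, and RNASET2 with its neighbours is red in EMEM.

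Likeness of profiles was measured as the root mean square difference of log2 CPM, centred per gene over the 12 libraries, as a description of these libraries. Among the 21 pairs of the 7 genes the closest was JAG1 with TNFRSF12A (0.187), and the farthest was JAG1 with RNASET2 (0.901). Among 9927 genes outside the 7, the nearest to JAG1 were TRIB1 (0.233) and SAT1 (0.235), beside a median of 0.602. TRIB1, a pseudokinase, averaged 221 ± 74.1 CPM in Plasmax-TE+Fe, 114 ± 28.9 in Plasmax-TE, 275 ± 9.93 in Plasmax and 138 ± 18.2 in EMEM. The nearest to TNFRSF12A were RASGRF2 (0.229) and DNAJC12 (0.23), and those to NEDD9 were ARG2 (0.209) and PPME1 (0.216). ARG2, the mitochondrial arginase, averaged 47.0 ± 17.7 CPM in Plasmax-TE+Fe, 27.4 ± 7.48 in Plasmax-TE, 64.4 ± 9.91 in Plasmax and 54.7 ± 6.36 in EMEM. VPS37A was nearest to DUSP6, a phosphatase that acts on ERK (0.248), and PPP1R15B (0.288), and PPP1R15B was also nearest to TCIM (0.304), followed by PDLIM3 (0.317). The nearest to CHST15 were ISM2 (0.492) and COX20P2 (0.496), beside a median of 0.918 for this gene, which varied most of the 7. RNASET2 was nearest to PLOD2, a lysyl hydroxylase that needs iron (0.279), and SLC6A8, the creatine transporter (0.342). PLOD2 averaged 184 ± 47.3 CPM in Plasmax-TE+Fe, 122 ± 8.99 in Plasmax-TE, 145 ± 45.6 in Plasmax and 358 ± 110 in EMEM. SLC6A8 stood out in EMEM alone, with 20.28 ± 1.718 CPM in Plasmax-TE+Fe, 19.59 ± 0.9572 in Plasmax-TE, 17.04 ± 3.955 in Plasmax and 55.64 ± 13.7 in EMEM.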

How the data were processed

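Total RNA of HepG2 cells in 4 media gave 12 QuantSeq libraries. The authors deposited unnormalized counts for each gene. Per the submitters' processing notes, the tools were STAR 2.7.5b, featureCounts 1.6.3, cutadapt 1.16, FastQC 0.72 and limma 3.40.6, with build hg19 (GRCh37). The gene annotation and counting strand are not given in the sources used here, so overlapping and antisense genes cannot be told apart. Of 10994 entries, 54 surplus repeats were dropped. The third-highest library of any gene reached 4.04 CPM or more, so genes with low counts had been filtered out. The low-count filter (filterByExpr, minimum count 10) removed 481 genes and left 10459, with all 7 genes among them.

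In R 4.3.3, edgeR 4.0.16 fitted 1 quasi-likelihood model with 4 media to all 12 libraries, with TMM scaling, two-sided tests and Benjamini-Hochberg adjustment over all genes tested (threshold 0.05). CPM use the scaled libraries, log2 CPM a prior count of 2, and intervals are at 95%. An exact permutation test of 3 libraries against 3 could not go below p = 0.1. The tests were tried on data simulated without runs of library numbers, so that trial cannot show how such runs affect the calls. Library numbers fall into 3 runs of consecutive numbers with 1 library per medium each. Deviations from the medium means correlated within runs at 0.217 to 0.534 for Plasmax-TE+Fe with Plasmax-TE and at 0.0655 to 0.0975 for Plasmax with EMEM, and 12 of 12 libraries were closest to their own run. No label says what a run is, so it is a block only among the alternatives. For the 7 genes, comparisons with Plasmax-TE+Fe or Plasmax-TE libraries are given without a test.

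The 7 genes and the lists were chosen with earlier results of these data known. Genes named are the 7, TFRC, HAMP, up to 3 per list called in Plasmax-TE+Fe against Plasmax-TE and up to 2 in Plasmax against EMEM with the lowest p, and the 2 nearest profiles of each of the 7 (mean of at least 5 CPM). A gene that this rule names is not reported here. Alternatives were DESeq2 1.42.0, limma-voom (limma 3.58.1), RLE factors, scaling by library size, other filters, blocks, libraries left out and only the media compared.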

Additional observations from a re-analysis of the deposited data

How the results depend on the processing

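No log2 fold change of the 7 genes that was called reversed its sign under the alternatives run. Genes called in Plasmax-TE+Fe against Plasmax-TE numbered 27, beside 71 with DESeq2, 20 with limma-voom, 152 with a library-number block (3 runs of consecutive numbers), 99 without the 2 libraries that stood apart, 0 with only the media compared and 0 to 229 with a library left out. The average of Plasmax-TE+Fe and Plasmax-TE against Plasmax gave 817, beside 1476 with the library-number block and 230 to 888 with a library left out (472 without Plasmax replicate 1, 230 without replicate 2). Among those calls, not read as a test here, were 4 of the 7 genes, all lower (4.21% of all genes were called lower). With a library left out, 1 to 4 of the 7 were called. Against EMEM it gave 1093, beside 568 to 1241 with a library left out (616, 623 and 568 without EMEM replicate 1, 2 and 3), and with library size alone 48.4% of its calls were higher, against 36.9% with TMM. Plasmax against EMEM gave 2233, beside 1489 to 2642 with a library left out. The cause of these shifts was not tested. The replicate block gave 19, 686, 982 and 2079 calls in these 4 comparisons, in the order given. In Plasmax-TE+Fe against Plasmax-TE it called 6 genes higher, beside 9 in the main fit, so not all of the 7 kept their call. In the other comparisons it changed no call of the 7 genes. The replicate numbers paired the libraries only in part. They follow the runs in EMEM, Plasmax and Plasmax-TE, but Plasmax-TE+Fe replicates 1, 2 and 3 carry library numbers 96, 88 and 92. Of 18 same-numbered pairs, 4 had a correlation over 0.1, and 7 of 12 libraries were closest to their own number. Counts of 8 to 17 limit CHST15 in Plasmax-TE.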
